A study of Mus musculus with 42 samples.

Results

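The MS4A genes encode a family of small membrane-spanning proteins that lie in 1 cluster on mouse chromosome 19 and act beside receptors at the surface of leukocytes. The best known relatives of the genes described here are Ms4a1, which encodes the B cell antigen CD20, and Ms4a2, the beta chain of the IgE receptor of mast cells. Ms4a4b is known from T cells, where its protein associates with the co-stimulatory receptor GITR. Ms4a4a, Ms4a6d and Ms4a7 are known from monocytes and macrophages, and the Ms4a4a protein is known as a partner of the beta-glucan receptor Dectin-1. The 7 genes Ms4a4b, Ms4a6b, Ms4a4c, Ms4a6c, Ms4a6d, Ms4a4a and Ms4a7 were listed by name as the members of the family associated with T cells and monocytes. They were chosen with earlier results of these data known. All 7 were present among the 26811 genes measured and passed the filter on low counts. The question addressed was how the transcript of the T cell member, Ms4a4b, compares with those of the other 6 members when PD-1 is blocked and when GM-CSF or IL2RB is blocked as well.

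The measurements were bulk poly(A) RNA-seq of 42 tumors of MC38, a mouse colon carcinoma line, grown under the skin of female CC075/UncJ x C57BL/6J F1 mice (CC75×B6) aged 8 to 12 weeks. These hosts carry their own immune system, and a tumor profile mixes the carcinoma cells with host cells. All mice were engrafted and then received repeated blocking antibodies or their isotype controls until tumors measured 75 to 110 mm3. A single antibody dose followed, and tumors were taken 48 h later. The isotype group (n = 5) received control antibodies only. The aPD1 group (n = 6) received control antibodies and then 200 μg of aPD1. The aPD1+aGM-CSF group (n = 9) received 100 μg of aGM-CSF, which neutralizes a myeloid growth factor, the aPD1+aIL2RB group (n = 11) received 200 μg of aIL2RB, directed at the receptor chain shared by IL-2 and IL-15, and the aPD1+aGM-CSF+aIL2RB group (n = 11) received both, in each case before the aPD1 dose. In bulk tumors, fewer cells of a type and less RNA per cell cannot be told apart. No label says that the tumors of a group came from separate experiments, so that p-values measure the spread between these tumors.

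Total counts per tumor lay between 7155486, in replicate 4 of the group given both blocking antibodies, and 24101674. The tumors also parted along their replicate numbers into a first set (isotype 1 and 2, aPD1 1 to 3, aPD1+aGM-CSF 1 to 5 and replicates 1 to 6 of both aIL2RB groups, 22 tumors) and a second set of the remaining 20, a division that the labels do not name and that was taken from an earlier look at these data. On the first principal component of the deviations from the group means, which held 11.8% of their variance, 19 of 22 tumors of the first set and 18 of 20 of the second lay on opposite sides of 0. The division came from these data, so this describes it and is no separate evidence for it. Values within each set are given where they change a result. Some alternative fits take the replicate number as a block, although equal numbers did not pair the tumors and could lie in different sets. Genes passing an adjusted p of 0.05 in edgeR's quasi-likelihood test, with Benjamini-Hochberg adjustment over the 16932 genes tested, are described as having risen or fallen. Levels are given as CPM, the count of a gene scaled to the TMM-normalized library size.

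The 7 genes span 283.811 kb of GRCm38, chr19:11321039-11604849. In the direction of increasing coordinates they are Ms4a7 (chr19:11321039-11336146, minus strand), Ms4a4a (chr19:11375523-11392790, plus), Ms4a4c (chr19:11404770-11427246, plus), Ms4a4b (chr19:11443553-11467055, plus), Ms4a6c (chr19:11469366-11482192, plus), Ms4a6b (chr19:11516512-11531256, plus) and Ms4a6d (chr19:11586604-11604849, minus). Ms4a4b therefore lies between Ms4a4c and Ms4a6c.

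Sequences before the start sites of the neighbors were compared because the T cell member and its neighbors have different levels in these tumors. Promoters of 6 of the 7 genes were matched by symbol in a RefSeq table for GRCm38.p6, and the 250 bases before the annotated start were read for each. The following 4 are shown because they form a pair each, Ms4a4b with Ms4a4c and Ms4a6b with Ms4a6c. They are written 5′ to 3′ on the strand of the gene, all on the plus strand, and capitals mark matches to the motifs searched.
Ms4a4b (chr19:11443308-11443557): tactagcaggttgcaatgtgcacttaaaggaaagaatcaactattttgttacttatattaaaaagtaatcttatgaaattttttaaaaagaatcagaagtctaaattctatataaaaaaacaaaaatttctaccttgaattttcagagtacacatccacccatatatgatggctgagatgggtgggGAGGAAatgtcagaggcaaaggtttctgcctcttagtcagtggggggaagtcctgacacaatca
Ms4a4c (chr19:11407411-11407660): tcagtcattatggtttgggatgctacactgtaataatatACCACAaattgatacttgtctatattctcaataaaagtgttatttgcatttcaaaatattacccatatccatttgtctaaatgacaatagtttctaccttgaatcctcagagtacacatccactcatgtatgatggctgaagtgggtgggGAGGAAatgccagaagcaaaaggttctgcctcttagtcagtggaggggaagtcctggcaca
Ms4a6b (chr19:11518309-11518558): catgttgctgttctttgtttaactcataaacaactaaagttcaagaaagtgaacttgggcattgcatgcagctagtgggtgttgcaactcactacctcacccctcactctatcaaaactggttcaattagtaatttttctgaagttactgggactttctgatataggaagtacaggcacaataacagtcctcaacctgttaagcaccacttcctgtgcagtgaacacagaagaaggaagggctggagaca
Ms4a6c (chr19:11469118-11469367): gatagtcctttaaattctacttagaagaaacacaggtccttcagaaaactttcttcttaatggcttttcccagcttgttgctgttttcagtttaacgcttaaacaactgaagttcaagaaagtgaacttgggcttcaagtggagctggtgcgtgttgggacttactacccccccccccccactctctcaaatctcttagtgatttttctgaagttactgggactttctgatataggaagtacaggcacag

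In an alignment with free ends, Ms4a4b and Ms4a4c were identical at 179 of 251 positions (71.3%), and Ms4a6b and Ms4a6c at 149 of 182 (81.9%). No other pair of the 6 promoters had an alignment score above 6, against 96 and 110 for these pairs. Among the motifs searched on both strands were GAGGAA, a core that the myeloid and B cell factor PU.1 binds, TGTGGT, a core of the RUNX factors, and the core of the interferon-stimulated response element, searched as its paired GAAA repeats. GAGGAA was present 64 bases before the Ms4a4b start and 61 bases before the Ms4a4c start, and 23.3% of the 32851 promoters in the table hold it in a window of this length. TGTGGT was present in the Ms4a4c window, on the minus strand and starting 211 bases before the start site, and 14% of promoters hold it. None of the 6 genes held the response element core (2.98% of promoters) in these windows. These matches describe letters in a short window only.

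Levels between genes were compared per length of the longest coding transcript of each gene. In isotype tumors, Ms4a7 (47.3 CPM per kb) and Ms4a6c (43.8) were the most abundant, followed by Ms4a6d (34.6), Ms4a6b (21.8), Ms4a4a (13.1) and Ms4a4c (13.1). Ms4a4b was at 1.91 CPM per kb, the lowest of the 7 in every group. In aPD1 tumors Ms4a6c (77.5) and Ms4a7 (76.9) were the most abundant and differed by less than their spread between tumors, Ms4a4c (38.7) stood above Ms4a4a (21.2), and Ms4a4b reached 5.94 CPM per kb. With lengths of all annotated exons in place of the longest coding transcript, Ms4a6c was first in every group, Ms4a7 was at 16.7 CPM per kb in isotype tumors, and Ms4a4b stayed last.

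Blockade of PD-1 alone was compared with isotype to ask which members accompany the early aPD1 response. Transcripts of 6 of the 7 members rose, against 8.71% of all genes called in this comparison, and the median log2 fold change of the 7 was 0.95 against 0.00 for all genes tested. The members were chosen with earlier results known, so shares of all genes here and below give a scale and are no test. The T cell member, Ms4a4b, had the largest fitted fold change and was the one that did not pass the test.

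Ms4a4b was at 9.02, 10.7, 6.96, 8.74 and 9.90 CPM in the 5 isotype tumors. It was at 40.4, 17.4, 16.9, 30.3, 25.4 and 38.7 CPM in the 6 aPD1 tumors. Every aPD1 tumor was above every isotype tumor. The fitted log2 fold change was 1.64 ± 0.59 (SE), 3.11-fold, with an adjusted p of 0.074 by edgeR over all 42 tumors. With only the 2 groups in the fit, the same change had an adjusted p of 0.0025, and adding the set to the model gave 0.038. Of 19 alternative fits over both sets, 3 called it, with adjusted p from 0.0025 to 0.15, and leaving out any 1 isotype or aPD1 tumor gave 0.057 to 0.15. In the second set alone it was called (1.895, adjusted p = 0.00025), and in the first alone it was not (1.335, adjusted p = 0.50). Of the 15 T cell markers, 0 were called by edgeR, 3 had an unadjusted p under 0.05 and DESeq2 called 0, with a median log2 fold change of 0.97 and summed levels of 72.3 to 123 CPM in isotype and 138 to 265 CPM in aPD1 tumors.

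Ms4a4c, the neighbor of Ms4a4b, was at 16.4, 20.4, 23.03, 25.4 and 27.3 CPM in isotype tumors. In aPD1 tumors it was at 57.7, 35.2, 43.6, 86.2, 74.3 and 102.6 CPM. The groups did not overlap, and the increase of 1.57 ± 0.29 on the log2 scale had an adjusted p of 0.00092 by edgeR. The 3 aPD1 tumors of the first set (35.2 to 57.7 CPM) lay below the 3 of the second (74.3 to 102.6 CPM).

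Ms4a6b was at 49.9, 47.3, 58.3, 60.8 and 76.3 CPM in isotype and at 119, 85.2, 102, 187, 116 and 162 CPM in aPD1 tumors, again without overlap. Its increase was 1.14 ± 0.19 (adjusted p = 0.00036), the lowest p of the 7 members in this comparison. Ms4a6d rose by 0.95 ± 0.19 (adjusted p = 0.0018) from a mean of 49.0 ± 6.42 (SD, n = 5) to 94.9 ± 28.02 CPM (SD, n = 6). Ms4a6c rose by 0.82 ± 0.16 (adjusted p = 0.0017) from 80.7 ± 10.5 (SD, n = 5) to 142.7 ± 34.4 CPM (SD, n = 6). Neither of these 2 overlapped between the groups, and with Ms4a4b, Ms4a4c and Ms4a6b 5 of 7 members did not overlap, against 4.51% of all genes tested.

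Ms4a7 and Ms4a4a moved least and overlapped between the groups. Ms4a7 was at 58.4 to 89.3 CPM in isotype and 80.9 to 156 CPM in aPD1 tumors, a change of 0.70 ± 0.22 (adjusted p = 0.041). Ms4a4a was at 6.89 to 13.8 and 13.1 to 24.8 CPM, a change of 0.69 ± 0.22 (adjusted p = 0.040). Both calls were close to the threshold, and 10 of 20 alternative fits over both sets kept the call of Ms4a7 and 12 of 20 that of Ms4a4a, with adjusted p from 0.018 to 0.12 and from 0.020 to 0.14. In the first set alone neither was called (adjusted p = 0.33 and 0.21), and in the second alone Ms4a4a was not (0.066). The call of Ms4a7 was lost without any one of isotype replicates 1 to 4 or aPD1 replicates 1, 4, 5 and 6 (adjusted p from 0.055 to 0.12), and that of Ms4a4a without isotype replicate 1, 2 or 4 or aPD1 replicate 1, 4 or 6 (adjusted p from 0.058 to 0.14).

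**Figure D1:**
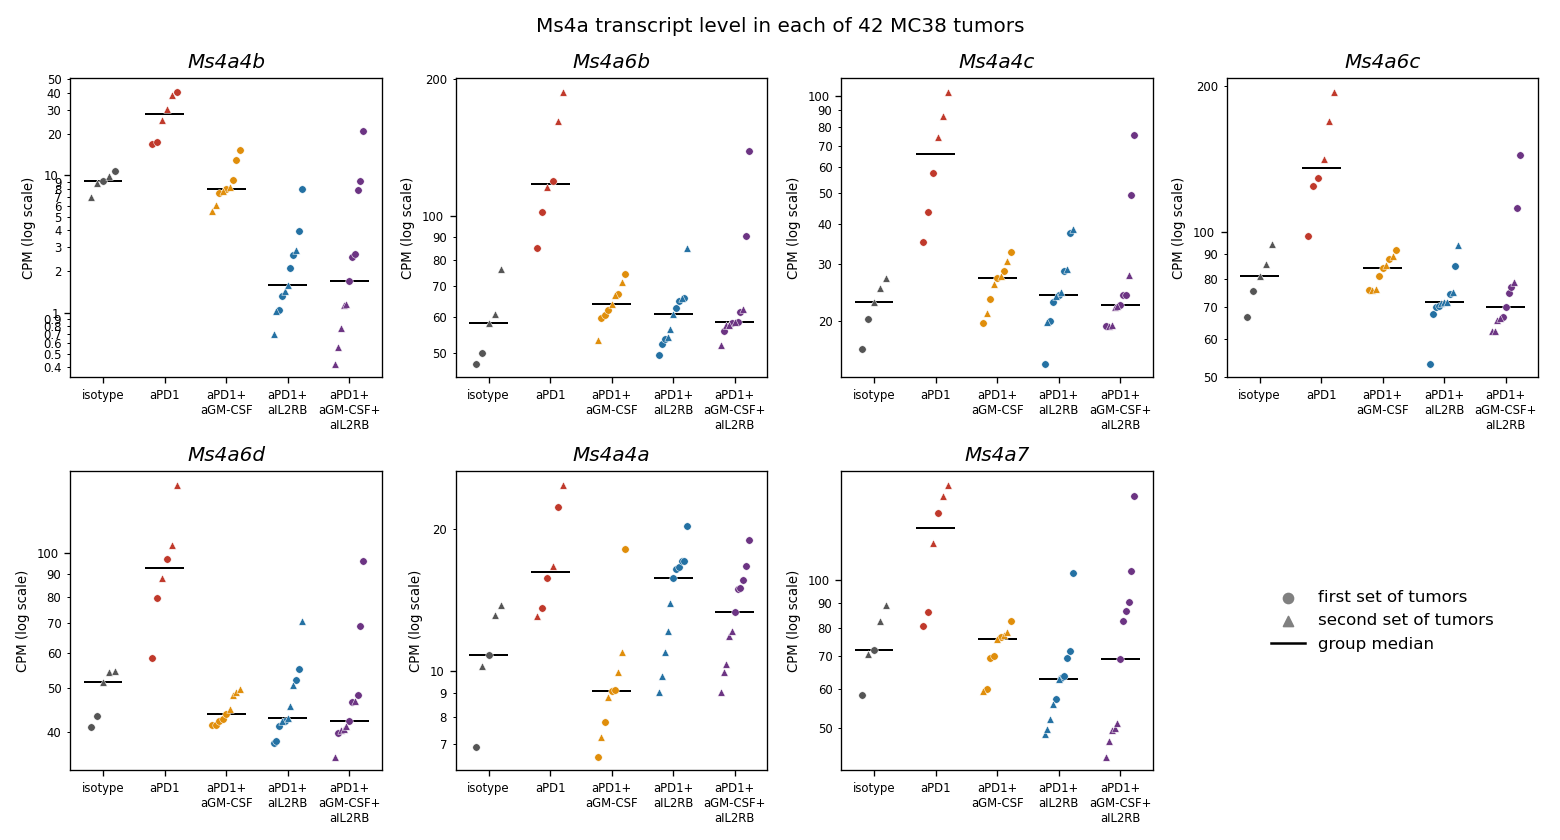
Level of each of the 7 Ms4a genes (CPM, log axis) in each of 42 tumors by treatment group; circles are tumors of the first set, triangles tumors of the second, and black lines are group medians. All 6 aPD1 tumors lie above all 5 isotype tumors for Ms4a4b, Ms4a6b, Ms4a4c, Ms4a6c and Ms4a6d, and the lowest levels of Ms4a4b are those of the 2 groups given aIL2RB.

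GM-CSF was neutralized before aPD1 in 9 tumors, which asks whether the aPD1-associated levels are reached without that growth factor. All 7 members fell relative to aPD1 alone, where 13.5% of all genes were called. Their median log2 fold change was -0.997, against 0.01 for all genes. Ms4a4b was at 5.46 to 15.2 CPM (median 8.01) and did not overlap with the aPD1 group. It fell by 1.66 ± 0.49 on the log2 scale (adjusted p = 0.019), and by 1.22 with the replicate number as a block (adjusted p = 0.054). Ms4a4c fell by 1.34 ± 0.24 (adjusted p = 0.00028) to 19.8 to 32.7 CPM, and Ms4a6d fell by 1.08 ± 0.16 (adjusted p = 4.7e-05) to 41.4 to 49.8 CPM. Ms4a6d had the lowest adjusted p of the 7 in this comparison.

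Ms4a4a, known from alternatively activated macrophages, fell by 0.87 ± 0.19 (adjusted p = 0.0018). Its levels were 6.57, 9.11, 7.78, 9.06, 18.1, 8.81, 7.23, 11.0 and 9.94 CPM, so that replicate 5 stood apart from the other 8 tumors. Ms4a4a and Ms4a7 overlapped with aPD1 alone, and the other 5 members did not, against 2.86% of all genes tested. Relative to isotype tumors, 0 of 7 members were called by edgeR, 0 had an unadjusted p under 0.05 and DESeq2 called 0, where 0% of all genes were called. The fitted log2 fold changes against isotype lay between -0.18 and 0.23 for all 7 members.

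IL2RB was blocked before aPD1 in 11 tumors, which removes signaling on which T and NK cells depend. Ms4a4b fell by 3.57 ± 0.49 on the log2 scale relative to aPD1 (adjusted p = 8.3e-07), the largest change of the family, and 6 of 7 members fell, where 27.4% of all genes were called. Its levels ranged from 0.71 to 7.93 CPM with a median of 1.59, and its highest value, in replicate 3, was below the lowest aPD1 tumor. Relative to isotype it fell by 1.93 ± 0.52 (adjusted p = 0.030), where 3.2% of genes were called, and relative to aPD1+aGM-CSF it fell by 1.91 ± 0.46 (adjusted p = 0.020), where 1.52% were called. The call against isotype was lost without isotype replicate 2 (adjusted p = 0.073), replicate 4 (0.070) or replicate 5 (0.067), and in the first set alone (0.17). The call against aPD1+aGM-CSF was lost in the first set alone (-1.77, adjusted p = 0.083).

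No other member was called against isotype with edgeR in aPD1+aIL2RB tumors, and the fitted changes of the other 6 lay between -0.23 and 0.40. With the replicate number as a block, Ms4a4a was called (0.60, adjusted p = 0.029, against 0.40 and 0.28 without it), in a fit that called 13.2% of all genes. In the second set alone the log2 fold change of Ms4a4a was -0.15 (adjusted p = 0.82). In that set Ms4a7 was called against isotype (-0.59, adjusted p = 0.0033), where 1.66% of all genes were called. Relative to aPD1, Ms4a6b fell by 1.08 ± 0.15 (adjusted p = 1.1e-06), Ms4a6c by 0.97 ± 0.13 (5.7e-07), Ms4a6d by 1.01 ± 0.15 (2.9e-06), Ms4a4c by 1.37 ± 0.23 (1.1e-05) and Ms4a7 by 0.93 ± 0.18 (0.00012). Ms4a6b and Ms4a6c did not overlap with aPD1, while the other 3 did; with Ms4a4b, 3 of 7 members did not, against 4.22% of all genes. In the direct comparison with aPD1+aGM-CSF, Ms4a4b was the only member called by edgeR, and the fitted log2 fold changes of the other 6 lay between -0.19 and 0.58. In the first set alone, Ms4a4a and not Ms4a4b was called in this comparison (0.77, adjusted p = 0.037). In the second set alone, Ms4a7 was called beside Ms4a4b (-0.44, adjusted p = 0.048), where 0.371% of all genes were called.

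Ms4a4a was the exception among the other 6 members. It was at 9.04 to 20.3 CPM (median 15.7) in aPD1+aIL2RB tumors, close to the 13.1 to 24.8 CPM of aPD1 tumors. Its log2 fold change against aPD1 was -0.29 ± 0.18 (adjusted p = 0.24), and no alternative fit over both sets of tumors called it (adjusted p from 0.14 to 0.70). Against aPD1+aGM-CSF, its log2 fold change was 0.58 ± 0.17 (adjusted p = 0.064), which was called with the replicate block (0.62, adjusted p = 0.024), with a term for the set (0.56, adjusted p = 0.041) and by DESeq2 (0.57, adjusted p = 0.033). Its levels followed the sets: the 6 tumors of the first set were at 15.7 to 20.3 CPM and the 5 of the second at 9.04 to 13.9 CPM, without overlap. In the first set the change against aPD1 was 0.00 (adjusted p = 0.99), and in the second it fell by 0.73 (adjusted p = 0.0052).

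**Figure D2:**
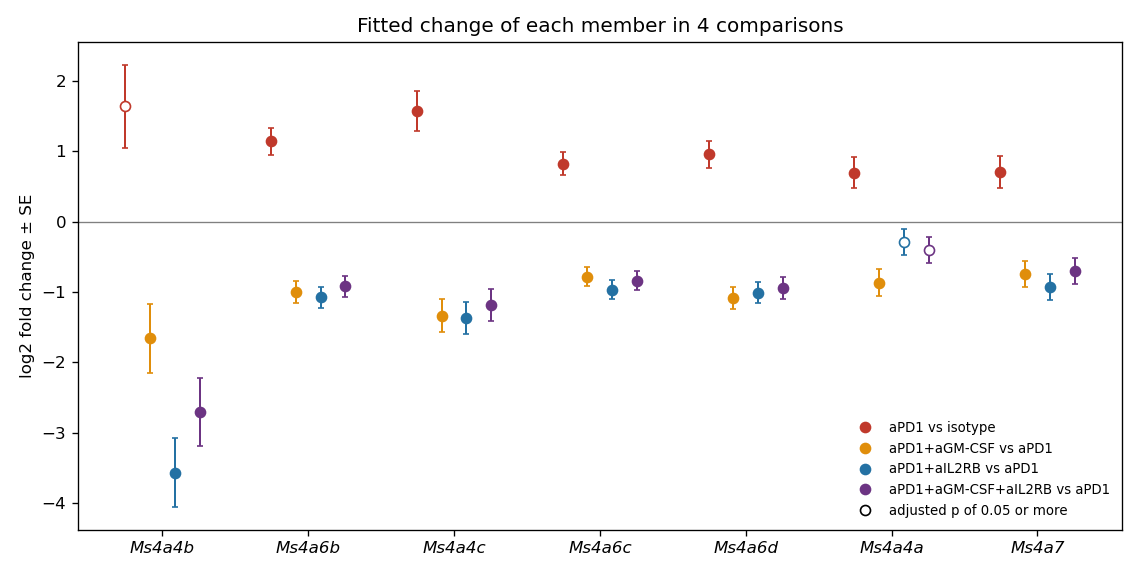
Fitted log2 fold change of each member (edgeR, error bars ± SE) for aPD1 against isotype (n = 6 and 5) and for each blocking group (n = 9, 11 and 11) against aPD1; open symbols have an adjusted p of 0.05 or more. Ms4a4b changed most with aIL2RB, by -3.57, and Ms4a4a least, by -0.29.

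With both blocking antibodies, 6 of 7 members fell relative to aPD1, where 27.4% of all genes were called. Ms4a4b fell by 2.71 ± 0.48 (adjusted p = 4.0e-05), and Ms4a4a had a log2 fold change of -0.40 ± 0.18 (adjusted p = 0.096), which was called once the set entered the model (-0.44, adjusted p = 0.045) and in the second set alone (-0.79, adjusted p = 0.0019). The other 5 fell by between 0.70 (Ms4a7) and 1.18 (Ms4a4c). Against isotype, 0 members were called by edgeR where 10.2% of genes were called, 1 had an unadjusted p under 0.05, and DESeq2 called 0. That member was Ms4a4b, with a log2 fold change of -1.07 ± 0.52 (adjusted p = 0.18), which was called once the set entered the model (-1.50, adjusted p = 0.034) and in the second set alone (-3.38, adjusted p = 1.1e-06). In that set Ms4a7 (-0.74, adjusted p = 9.2e-05) and Ms4a6c (-0.38, adjusted p = 0.022) were called against isotype as well, where 11.4% of all genes were. Against aPD1+aGM-CSF (2.13% of genes called), edgeR called 0 members, 2 had an unadjusted p under 0.05 and DESeq2 called 0. Ms4a4b was called here with the replicate block (-1.35, adjusted p = 0.032) and in the second set alone (-3.06, adjusted p = 5.4e-06). Ms4a7 was called beside it in the second set alone (-0.59, adjusted p = 0.00064), where 7.68% of all genes were called. Against aPD1+aIL2RB (0.00591% called) edgeR called 0 members, with 0 at an unadjusted p under 0.05 and 0 by DESeq2.

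In the group given both antibodies the sets differed. Ms4a4b was at 20.9, 2.54, 1.72, 9.09, 7.78 and 2.68 CPM in the 6 tumors of the first set. It was at 0.78, 0.56, 1.16, 1.14 and 0.42 CPM in the 5 of the second. Every tumor of the first set was above every tumor of the second, and replicate 1 was within the range of aPD1 alone. Ms4a7 parted in the same way, at 69.2 to 148 CPM in the first set and 43.7 to 51.4 CPM in the second, as did Ms4a4a, at 13.4 to 18.97 and 9.04 to 12.2 CPM. Ms4a6b, Ms4a4c, Ms4a6c and Ms4a6d overlapped between the sets but were highest in replicates 1 and 4. In replicate 1 they were at 138.8, 75.6, 144 and 96.0 CPM, and in replicate 4, the tumor of lowest total, at 90.3, 49.1, 111.8 and 68.9 CPM.

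The difference between the sets in the change against aPD1 was tested as an interaction over all 42 tumors, and 6 of 7 members passed, where 9.18% of all genes did. The sets were taken from an earlier look at these data, so p-values of this test are no independent evidence that they differ. For Ms4a4b the second set minus the first was -3.50 ± 0.78 (log2, adjusted p = 0.0044). In fits of the sets apart, it was -1.76 in the first (adjusted p = 0.064) and -5.28 in the second (adjusted p = 1.3e-09). For Ms4a7 the change was -0.06 in the first set (adjusted p = 0.90) and -1.56 in the second (adjusted p = 1.6e-09). The change of Ms4a7 also differed between the sets relative to isotype, where 1.1% of all genes passed, and relative to aPD1+aGM-CSF, where 0.821% did. The first set called 0 of 7 members where 5.37% of genes were called, and the second called 7 where 29.6% were. The first set also called 0 members for aPD1 against isotype (0.0115% of genes) and for aPD1+aGM-CSF against aPD1 (0.155%), and 4 for aPD1+aIL2RB against aPD1 (15.6%). The second called 6, 7 and 7 in these comparisons, where 13%, 16.4% and 22% of genes were called. Summed T cell markers moved with the sets in the group given both antibodies, at 36.7 to 153 CPM in the first and 10.5 to 21.3 CPM in the second, as did summed macrophage markers, at 2970 to 4428 and 2095 to 2446 CPM. Their part in the difference was not tested.

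The T cell member was compared within each tumor with Ms4a7, known from macrophages, and with its neighbor Ms4a4c, as the log2 CPM of Ms4a4b minus that of either gene. Ratios cancel a change that both genes share. Relative to Ms4a7, Ms4a4b was at -3.03 ± 0.31 (SD, n = 5) in isotype and -2.14 ± 0.24 (SD, n = 6) in aPD1 tumors. The isotype tumors ranged from -3.34 to -2.68 and the aPD1 tumors from -2.36 to -1.76, without overlap. The difference of 0.89 had a p of 0.0022 in an exact two-sided permutation test, the smallest that 5 and 6 tumors allow, and an adjusted p of 0.0029 over the 8 ratio tests. With aGM-CSF the ratio differed from aPD1 alone by -0.93, at -3.07 ± 0.42 (SD, n = 9, exact permutation, adjusted p = 0.0016). With aIL2RB it was at -4.95 ± 0.75 (n = 11), a difference of -2.81, and with both antibodies at -4.92 ± 1.17 (n = 11), a difference of -2.78, each with an adjusted p of 0.00022 by exact permutation. No tumor given aIL2RB reached the lowest aPD1 tumor in this ratio.

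Relative to Ms4a4c, its neighbor in the cluster, the picture was different for aPD1 and aGM-CSF. The ratio was -1.29 ± 0.38 (n = 5) in isotype and -1.22 ± 0.40 (n = 6) in aPD1 tumors, a difference of 0.07 (exact permutation, adjusted p = 0.76). With aGM-CSF it differed from aPD1 alone by -0.38 (exact permutation, adjusted p = 0.089). With aIL2RB the difference was -2.41 (adjusted p = 0.00022) and with both antibodies -2.32 (adjusted p = 0.0016), by exact permutation with n = 11 and 6 in each. The ratio of Ms4a4b to Ms4a4c was therefore lower in both groups given aIL2RB, while its differences for aPD1 alone and for aGM-CSF did not pass the test over all tumors. In the second set alone the difference for aGM-CSF passed (-0.45, exact permutation, adjusted p = 0.038). As a description, the ratio to the mean of the other 6 members was -2.14 in isotype, -1.52 in aPD1, -2.23 with aGM-CSF, -4.33 with aIL2RB and -4.21 with both.

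**Figure D3:**
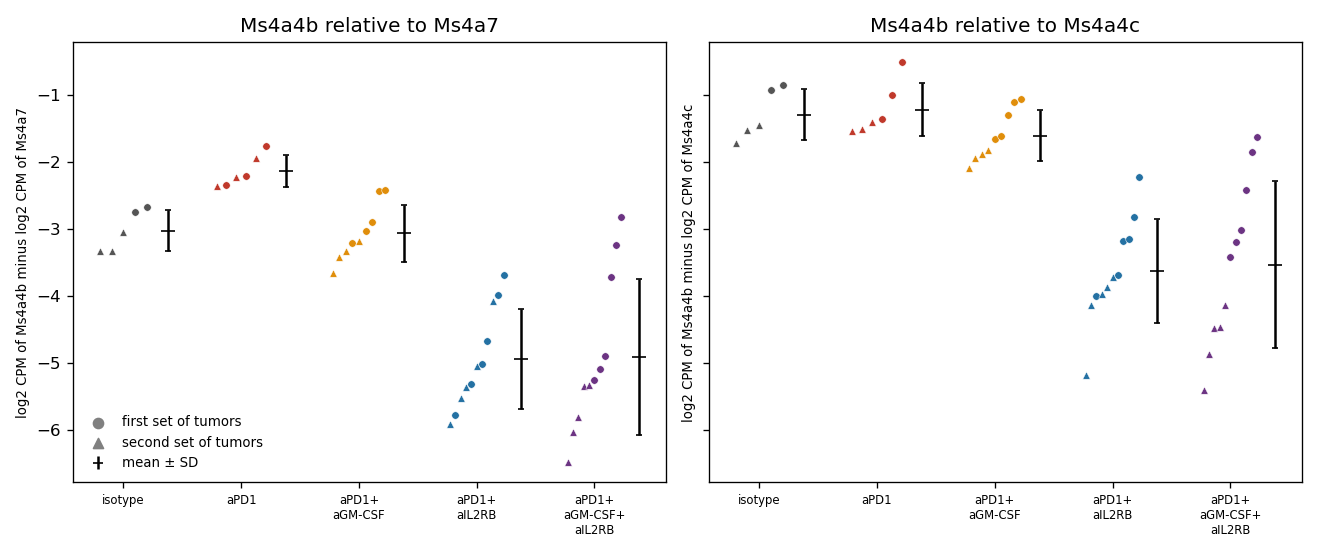
Log2 CPM of Ms4a4b minus log2 CPM of Ms4a7 (left) or Ms4a4c (right) in each of 42 tumors by group; circles are the first set, triangles the second, and black marks are means ± SD. Relative to Ms4a7, aPD1 tumors lie at -2.36 to -1.76 and all tumors given aIL2RB lie below them.

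Markers of the cell types in which these genes are known were described from lists chosen with earlier results of these data known. T cell markers followed Ms4a4b in direction: 6 of 15 fell with aGM-CSF, 14 with aIL2RB and 15 with both antibodies relative to aPD1, with median log2 fold changes of -1.25, -2.88 and -2.53. DESeq2 called 3, 14 and 15 of them. Of all genes, edgeR called 13.5%, 27.4% and 27.4% in these comparisons, and 8.71% for aPD1 against isotype. The T cell receptor constant gene Trac fell by 2.94 ± 0.43 with aIL2RB, the kinase gene Lck fell by 3.03 ± 0.40, Cd8a fell by 3.73 ± 0.53 and Thy1 fell by 1.74 ± 0.22. Of the 8 NK cell markers, 2, 7 and 8 fell, among them Klrk1, the gene of the activating receptor NKG2D, by 2.59 ± 0.42 with aIL2RB. Klra4, the NK receptor gene of the highest mean level in the list, had a log2 fold change of -0.19 ± 0.12 with aIL2RB (adjusted p = 0.23).

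Of 13 macrophage markers, 9 rose with aPD1 and 10 fell in each of the 3 blocking groups, with a median of 0.59 for aPD1 and of -0.67, -0.73 and -0.77 for the blocking groups. The complement gene C1qa rose by 0.59 ± 0.15 with aPD1 and fell by 0.92 ± 0.13 with aIL2RB, and the lysozyme gene Lyz2 rose by 0.59 ± 0.14 and fell by 0.73 ± 0.11. Of the 12 interferon-response genes, 7 rose with aPD1 and 9, 10 and 10 fell with aGM-CSF, aIL2RB and both. Cxcl9, a chemokine gene that draws T cells, had a log2 fold change of 1.10 ± 0.52 with aPD1 (adjusted p = 0.19) and fell in the blocking groups (log2 fold changes -1.33 ± 0.44, -1.84 ± 0.42 and -2.01 ± 0.42).

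Monocyte markers did not move together. With aIL2RB, 2 of 12 rose and 5 fell relative to aPD1. The risen ones were Fn1, the fibronectin gene, by 0.87 ± 0.11, and Vcan, the versican gene, by 0.67 ± 0.15, both of which stromal and tumor cells can also express. Ccr2, the chemokine receptor of inflammatory monocytes, fell by 0.37 ± 0.14. Of 6 B cell markers tested, 2 rose with aPD1, and 3 fell with aIL2RB and 3 with both antibodies, where 27.4% of all genes were called. With aGM-CSF, 0 of them were called by edgeR, 2 had an unadjusted p under 0.05 and DESeq2 called 0. Of 5 mast cell markers, 0 were called for aPD1 against isotype by edgeR, 2 had an unadjusted p under 0.05 and DESeq2 called 0. The leukocyte gene Ptprc, which encodes CD45, rose by 0.97 ± 0.25 with aPD1 and fell by 0.81 ± 0.21, 1.29 ± 0.20 and 0.98 ± 0.20 in the blocking groups. The part of leukocyte content in the changes of the members was not tested.

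Among the partners, Clec7a, the gene of Dectin-1, had a log2 fold change of 0.66 ± 0.38 with aPD1 (adjusted p = 0.28) and fell in the blocking groups (log2 fold changes -1.46 ± 0.33, -1.53 ± 0.31 and -1.86 ± 0.31). Ms4a4a did not pass the test with aIL2RB, where Clec7a fell. Tnfrsf18, the gene of GITR, had a log2 fold change of -0.57 ± 0.25 with aGM-CSF (adjusted p = 0.12) and fell by 0.98 ± 0.24 with aIL2RB and by 1.11 ± 0.24 with both. The receptor gene Trem2 fell by 0.38 ± 0.12, 0.45 ± 0.11 and 0.43 ± 0.11. The adapter genes Tyrobp and Fcer1g rose with aPD1, by 0.68 ± 0.18 and 0.73 ± 0.20, and fell in all 3 blocking groups.

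Variation from tumor to tumor within a treatment group and set was used to ask which lists each member follows. Deviations of log2 CPM from the mean of each group within each set were correlated over the 42 tumors with those of 5 list scores, and permutation p-values were adjusted over the 35 relations. Ms4a4b was most closely related to T cell markers, with r = 0.87 and rho = 0.85 (adjusted p = 3.2e-05 and 5.0e-05). It was r = 0.81 without the 2 tumors farthest from the median of the score, 0.93 in the first set and 0.77 in the second. Its relation to the other 4 lists was lower, from 0.59 (monocyte) to 0.69 (interferon response).

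Ms4a4c was most closely related to interferon-response genes (r = 0.84, rho = 0.82, adjusted p = 3.2e-05 and 5.0e-05, and r = 0.77 without 2 tumors). In the first set alone its r was 0.87 with these and 0.875 with monocyte markers. Ms4a6d had its highest r with interferon-response genes over both sets (0.80, rho = 0.69, 0.68 without 2 tumors). Its rho was as high with monocyte markers (0.695). Its highest r was with macrophage markers in the first set (0.85) and NK cell markers in the second (0.78, against 0.69 with interferon-response genes). Ms4a6c had its highest r with monocyte markers (0.79, rho = 0.83, 0.77 without 2 tumors). In the second set alone its r was 0.74 with these and 0.80 with NK cell markers. Ms4a7 was most closely related to macrophage markers (r = 0.79, rho = 0.70, adjusted p = 3.2e-05 and 9.5e-05, and 0.75 without 2 tumors), while its relation to monocyte markers did not pass (r = 0.31, rho = 0.29, adjusted p = 0.093 and 0.099). Ms4a6b had r of 0.65 (NK cell) to 0.75 (interferon response) with the 5 lists. Without 2 tumors its r was 0.43 with NK cell, 0.57 with macrophage and 0.71 with monocyte markers. The lists share tumors, and their scores moved together, so that each member except Ms4a4a was also related to lists of other cell types. Some of these relations differed between the sets. With interferon-response genes, r in the first and second set was 0.81 and 0.04 for Ms4a7 and 0.86 and 0.28 for Ms4a4b. It was 0.75 and 0.20 for Ms4a4c with macrophage markers, and 0.53 and 0.80 for Ms4a6c with NK cell markers. Whether r differed between lists was not tested.

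Ms4a4a followed none of the 5 lists. Its r ranged from -0.04 (interferon response) to 0.34 (macrophage, adjusted p = 0.056, rho = 0.19), and from 0.00 (Ms4a7) to 0.30 (Ms4a6b) with the other members. Among Ms4a6b, Ms4a4c, Ms4a6c and Ms4a6d, by contrast, r between members was 0.85 to 0.91. Ms4a7 was at 0.58 to 0.65 with these 4 and at 0.75 with Ms4a4b. Correlations between members are given as a description, over 42 tumors that share libraries and normalization.

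**Figure D4:**
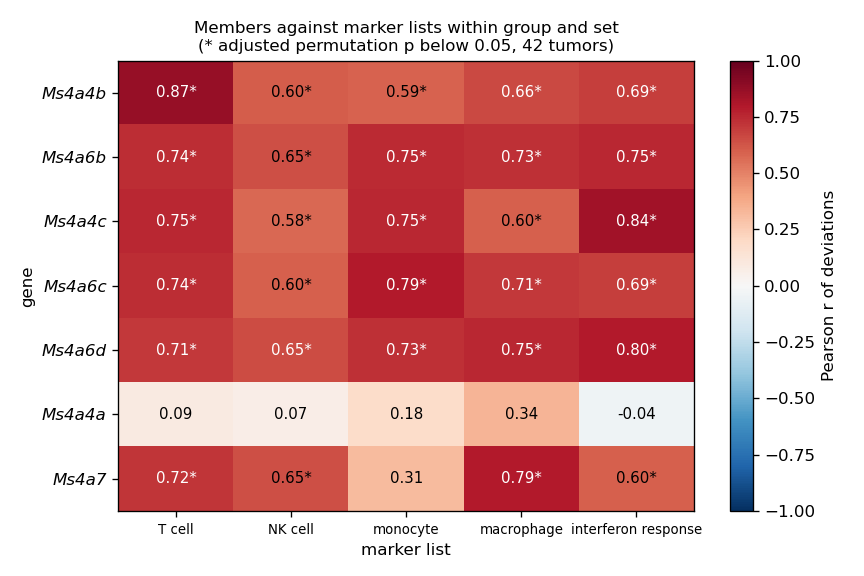
Pearson r between each member (rows) and each marker list score (columns) over 42 tumors, as deviations from the mean of the treatment group within its set; color gives r from -1 to 1 and asterisks mark an adjusted permutation p below 0.05. Ms4a4b has its highest r with T cell markers (0.87), and the row of Ms4a4a holds no asterisk.

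The genes outside the family whose log2 CPM was most like that of each member over all 42 tumors were sought among 12407 genes with a mean log2 CPM of at least 1. For Ms4a4b they were Ptpn22, which encodes a lymphoid phosphatase (r = 0.97, and 0.89 within group and set), Trac (0.96 and 0.79) and Cd3g (0.96 and 0.81). For Ms4a4c they were the interferon-inducible genes Ifi209 (0.96 and 0.95), Ifi211 (0.96 and 0.93) and Ifi204 (0.95 and 0.92). For Ms4a6b they were Ifi209 (0.94 and 0.85), Ifi204 (0.94 and 0.87) and Fcgr1 (0.93 and 0.87), the gene of the high-affinity IgG receptor.

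Fcgr1 was also the nearest gene of Ms4a6c (0.95 and 0.88) and Ms4a6d (0.95 and 0.91). It was followed by Tm6sf1 and Lyn for Ms4a6c, and by M6pr and Samhd1 for Ms4a6d. The nearest genes of Ms4a7 were Ctsh, which encodes cathepsin H (0.93 and 0.85), Pirb (0.93 and 0.77) and C3ar1 (0.92 and 0.73). Ms4a4a had no gene above 0.76, and its nearest were Man2a1 (0.76 and 0.70), Npc1, which encodes a cholesterol transporter of lysosomes (0.73 and 0.49), and Abca1, which encodes a cholesterol exporter (0.72 and 0.56).

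The annotation lists 19 Ms4a genes, of which 13 were in the table. Of the other 6 in the table, Ms4a14, Ms4a4d, Ms4a8a and Ms4a1 passed the filter on low counts. Ms4a14, the neighbor of Ms4a7, rose from 14.6 ± 2.76 (SD, n = 5) to 29.1 ± 5.74 CPM (SD, n = 6) with aPD1 (log2 fold change 0.99 ± 0.29, adjusted p = 0.023), and fell by 0.70 ± 0.24 with aGM-CSF (adjusted p = 0.047) and by 0.64 ± 0.23 with aIL2RB (adjusted p = 0.033). With both antibodies its log2 fold change was -0.35 ± 0.23 (adjusted p = 0.28). Ms4a4d was at 3.32 ± 1.04 CPM (SD, n = 6) in aPD1 tumors and fell in all 3 blocking groups by between 0.94 and 0.98. Ms4a8a fell with aGM-CSF and with both antibodies, and Ms4a1 fell with aIL2RB, from 0.67 ± 0.72 (SD, n = 6) to 0.18 ± 0.22 CPM (SD, n = 11). Ms4a2 and Ms4a15 were at a mean of 0.249 CPM or less in every group and were not tested.

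Reads that fit several genes could blur the members, and this was looked at in the counts and the transcripts. Counts of Ms4a6c were not whole, to a tolerance of 0.001, in 39 of 42 tumors, while those of the other 6 members were whole in all. BE692007, a transcript annotated on the opposite strand across Ms4a6c, was not whole in the same number of tumors, and the counts of both summed to within 0.1 of a whole number in 32 tumors. Of the 100-base windows of Ms4a6c transcripts, 45.8% were shared with another annotated gene, against 1.66% for Ms4a4c, 0.473% for Ms4a4b and 0 for the other 4. With the counts of BE692007 added to Ms4a6c, no call of Ms4a6c changed in the 4 comparisons above.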

How the data were processed

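Poly(A) RNA of 42 tumors was sequenced as paired-end reads, and per the study's methods the authors aligned them with Bowtie 1.2.3 to transcriptomes of the founder strains of the host cross (GRCm38, mm10) and estimated gene counts with gbrs. The deposited values are these expected counts per gene, not normalized, and 15.2% of them are not whole to a tolerance of 0.001. 1 listed gene and 1 motif are not reported here. They were rounded to whole numbers. Genes passing filterByExpr (minimum count 10, total 15), 16932 of 26811, were normalized by TMM and tested with edgeR 4.0.16 by the quasi-likelihood F-test in 1 model of 42 tumors with treatment as the factor, and p-values were adjusted by Benjamini-Hochberg with a threshold of 0.05. The SE of an edgeR fold change was taken as its absolute log2 value divided by the square root of F, and is not a value that edgeR reports. DESeq2 1.42.0 was an alternative. The script was checked on simulated data. Log2 CPM used a prior count of 2. Total counts per tumor are given with the results and limit precision for low genes such as Ms4a4b, with 9 counts in its lowest tumor. Symbols, coordinates and lengths come from a GENCODE release for GRCm38 that is not the one the authors used, and 26629 identifiers had a symbol. Ratios were tested by exact two-sided permutation over tumors and correlations by 100000 permutations within group and set. Alternatives were other normalizations, filters, fits and tests, the replicate number as a block, the set as a term or each set alone, and leaving out isotype or aPD1 tumors in turn. All 7 members are named, with the other Ms4a genes tested, at most 4 genes of the highest mean level per marker list, and the 3 nearest genes per member. The members and lists were chosen with earlier results of these data known.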

Additional observations from a re-analysis of the deposited data

Results flagged for a closer look

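Ms4a4a in aPD1+aGM-CSF replicate 5, at 18.12 CPM, stood apart from the other 8 tumors of its group, which lay between 6.57 and 11.0 CPM. It was 1 of 21 groups of values tested for a single distant tumor, and chance marks about 1 in 20.

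The change with both antibodies relative to aPD1 differed between the 2 sets of tumors, in an interaction test adjusted over all genes by edgeR, for 6 members. The second set was lower than the first by a log2 difference of -1.485 for Ms4a7 (adjusted p = 0.00081), -1.623 for Ms4a4c (0.0093), -1.021 for Ms4a6b (0.014), -0.9878 for Ms4a6d (0.016), -3.505 for Ms4a4b (0.0044) and -0.9515 for Ms4a6c (0.0068). For Ms4a4a the difference was -0.65 (adjusted p = 0.17). The change of Ms4a7 with both antibodies also differed between sets relative to isotype, by -1.313 (adjusted p = 0.018; 0.57 in the first set and -0.74 in the second), where 1.1% of all genes passed, and relative to aPD1+aGM-CSF, by -1.023 (adjusted p = 0.024), where 0.821% passed. These were 8 of 70 such tests of members. All of them involve the group given both antibodies, and the labels do not say what the sets are. The division into sets came from an earlier look at these data, which limits what these p-values show.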

How the results depend on the processing

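Among member fold changes recomputed under another setting, 550 kept their direction and side of the threshold, 46 lost their call, 16 gained one and 7 turned direction. In the first set alone, 0 members were called for aPD1 against isotype, aPD1+aGM-CSF against aPD1 and both antibodies against aPD1. For aPD1+aIL2RB against isotype, 0 members were called in the first set and with at least 10 counts in every tumor (Ms4a4b then being untested), 2 with the replicate block (13.2% of all genes, against 3.2%) and in the second set (1.66%), and 0 to 1 without single isotype tumors. For both antibodies against isotype, 1 was called with the block (23.3% of all genes, against 10.2%), 1 with the set as a term (12%) and 3 in the second set (11.4%). The member called with the set term was Ms4a4b, which was not the one called with the block (-0.9256, adjusted p = 0.125). For aPD1+aIL2RB against aPD1+aGM-CSF, 0 were called with at least 10 counts in every tumor and 2 with the block (2.01% of all genes, against 1.52%), the set term (2.39%), DESeq2 (1.48%) or the second set (0.371%). For both antibodies against aPD1+aGM-CSF, 2 were called with the block (5.4% of all genes, against 2.13%) or in the second set (7.68%). In the second set, Ms4a4b and Ms4a7 were called for aIL2RB and for both antibodies, against isotype and against aPD1+aGM-CSF. Directions turned for Ms4a4b in aPD1+aGM-CSF against isotype (0.4245 with the block, 0.1033 in the first set, and -0.1022 to 0.04101 without single isotype tumors, above 0 without isotype replicate 2 or 5), for Ms4a4b in both antibodies against aPD1+aIL2RB (-0.8961, second set), and for Ms4a4a in aPD1+aIL2RB against aPD1 (0.004519, first set) and against isotype (-0.1502, second set), none of which was called. With tumors paired by number (replicate block), the Ms4a4b to Ms4a7 log2 ratio differed by 0.8491 (exact sign-flip test, adjusted p = 0.083), -0.7506, -2.611 and -2.034 in the 4 comparisons, and that to Ms4a4c by -1.961 and -1.367 with aIL2RB and both (adjusted p = 0.05 each), and 6 pairs allow no p below 0.031. The ratio to Ms4a7 no longer passed for the first 2 comparisons in the first set (0.6102 and -0.6986, exact permutation, adjusted p = 0.13 and 0.057) or for aPD1 against isotype in the second (1.064, adjusted p = 0.11), and for aPD1 against isotype the tumors of 1 set allow no p below 0.1. The ratio to Ms4a4c differed by -0.07219 for aPD1 against isotype in the first set, by -0.07036 to 0.1815 without single isotype or aPD1 tumors (-0.03325 without isotype replicate 3), and passed for aGM-CSF in the second set (-0.4496, adjusted p = 0.038 by exact permutation). Of the correlations with marker lists recomputed, 93 moved little and 12 more, of which 5 were r with NK cell markers without the 2 farthest tumors, then 0.36 to 0.45 for Ms4a4b, Ms4a6b, Ms4a4c, Ms4a6c and Ms4a6d, and the other 7 rose with nothing subtracted, to between 0.31 (Ms4a4a, interferon response) and 0.88 (Ms4a4b, NK cell). The cause was not tested. Replicate numbers did not pair the tumors: over 67 same-numbered pairs the correlation of deviations had a median of 0.03 (16 above 0.1), and 8 of 42 tumors correlated best with their own number. Depth limits Ms4a4b most, since its levels with aIL2RB rest on few reads. Adding the counts of BE692007 to Ms4a6c was chosen after seeing the data.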
